A study of Saccharomyces cerevisiae with 68 samples.

Results

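The 8 arrays described here follow the budding yeast strain K9, a sake-brewing strain of Saccharomyces cerevisiae, late in its response to heat. They were chosen by their labels alone: strain K9, sampled at 30, 45, 60 and 120 min after the shift to 37C, once in each of 2 series, which gave 8 of the 68 arrays of the study. At the same times the strains DBY8268, M22, RM11-1a and YPS163 had 32 arrays, 8 per strain. All cells grew in rich medium (YPD) in log phase at 25C, and prewarmed medium brought the mixture to 37C. Each array is a 2-colour microarray on which RNA of heated cells competes with RNA of the same strain at 25C, so every value below is a log ratio of 37C over 25C, taken as log2 because no source used here states the log base. A value of 1 is then 2-fold higher than at 25C, and 0 is the level at 25C.

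Yeast cells moved to a warmer but tolerable temperature show a fast and mostly transient change in their RNA. The factor Hsf1 drives chaperone genes, the factors Msn2 and Msn4 drive general stress genes, and genes for ribosomes and growth are lowered. Chaperones refold or sequester damaged proteins, trehalose protects proteins and membranes, and most RNAs move back toward a new steady level as cells adapt. The times from 30 to 120 min cover that adaptation.

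The K9 arrays held 4624 to 5968 values each, with medians between −0.03 and 0.18. The 2 K9 arrays of a time correlated across genes with r = 0.843, 0.714, 0.706 and 0.649 in the order of the times, inside the span of 0.293 to 0.868 of the other strains. Identical values made up 0.672% to 0.988% of their genes, so neither was a copy of the other. The labels do not say whether the 2 series came from separate cultures. Each p-value therefore reflects only how far the replicate arrays of a group spread, which may be technical error. That spread is pooled over all 30 groups of strain and time, so most of it comes from the other strains' arrays. In differences from the other 4 strains these strains are fixed, so SE and p-value leave out the spread between strains. All K9 time-course arrays carried the dyes in one orientation. The dye term of the model therefore came from the other 4 strains, and a fitted K9 value is the mean of the 2 arrays less a share of that term. On 2 further arrays K9 was compared with DBY8268 at 25C. The ASP3 genes, which the S288c background of DBY8268 carries, lay between −7.62 and −4.71 there, so these ratios are likely K9 over DBY8268. All ratios of a K9 series share its 25C RNA, so the counts at the 4 times are not independent of each other.

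Fewer genes differed from 25C in K9 at each later time. A gene is called when its adjusted p is under 0.05, by limma with Benjamini-Hochberg adjustment over the 4360 genes tested. At 30 min 1108 genes were higher and 948 lower, 25.4% and 21.7% of all genes tested. At 45 min 643 were higher and 534 lower, 14.7% and 12.2%. At 60 min the counts were 519 higher and 497 lower, 11.9% and 11.4%. At 120 min 384 genes were still higher (8.81%) and 171 still lower (3.92%). Calls of at least 2-fold numbered 971 (22.3%), 464 (10.6%), 272 (6.24%) and 144 (3.3%) in that order of times. The counts and their split depend on the arrays and the scaling. Here and below, leaving out array 1 or array 2 of a strain leaves out that whole series, at every time. Genes without a value in the remaining series were then not tested. A call not listed as lost may therefore not have been tested in that setting. Without K9 array 1 the calls at 30, 45, 60 and 120 min were 1157, 629, 371 and 167, and without K9 array 2 they were 658, 368 and 170 at 45, 60 and 120 min. With the prefix of the array code in the labels as a covariate, whose meaning is not stated, 375 genes were called at 45 min and 330 at 120 min. With each array centred on its median, 42.9%, 38.5%, 40.0% and 51.3% of the calls at 30, 45, 60 and 120 min were higher, beside 53.9%, 54.6%, 51.1% and 69.2% of the values as deposited.

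Set beside the other strains at 30 min, K9 had 971 genes called at 2-fold, M22 had 1261, DBY8268 607, YPS163 563 and RM11-1a 381. At 120 min the counts were 144 in K9, 409 in M22, 349 in YPS163, 176 in RM11-1a and 143 in DBY8268. In YPS163 the count was 110 at 60 min, below its 349 at 120 min. Differences between strains in these counts were not tested.

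**Figure D1:**
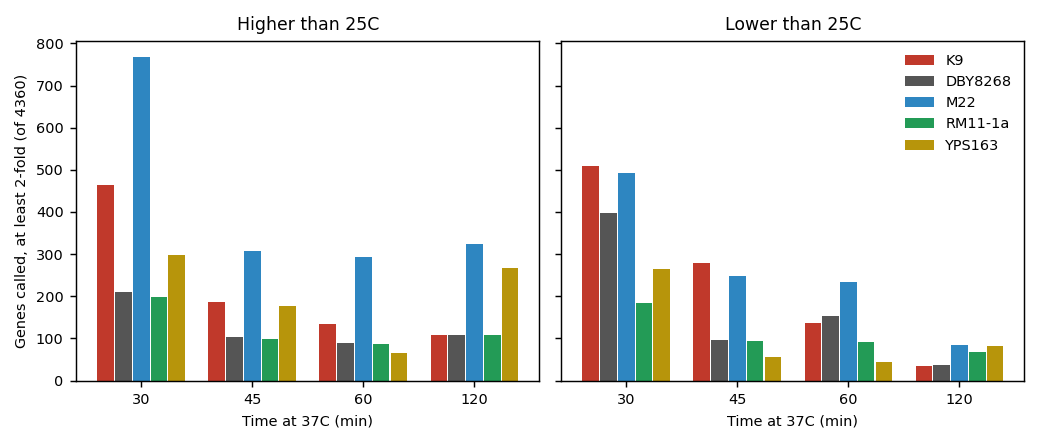
Genes called at an adjusted p under 0.05 and at least 2-fold from 25C, of 4360 tested (y axis, number of genes), at 30, 45, 60 and 120 min at 37C (x axis), with genes higher than at 25C on the left and lower on the right; each bar is 1 strain, with K9 first. K9 has 463 higher and 508 lower genes at 30 min, and 109 higher and 35 lower genes at 120 min.

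To describe the course of single genes, 4 classes were formed from these calls. A gene stayed changed if it was called at 2-fold or more in the same direction at 30 and at 120 min. It returned if it was called at 2-fold at 30 min, lay within 0.5 of 0 without a call at 120 min, and the change between these times was called. It overshot if it was called at 2-fold by 30 min and called with the opposite sign, past 0.5, at 45, 60 or 120 min. It changed late if it had no call at 5, 15 or 30 min and was called at 2-fold later. This last class sets no limit on the early values and tests no change from early to late. A gene already shifted early but not called can therefore be in it. The classes count calls that share 25C RNA, so their members are described and not tested again.

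In K9, 107 genes stayed changed, 83 of them higher and 24 lower, and 417 returned, 151 from above and 266 from below. A further 89 genes overshot, 60 to a higher and 29 to a lower level than at 25C, and 43 changed late, 31 upward and 12 downward. Of the 971 genes changed by 2-fold at 30 min, 11.0% stayed changed and 42.9% returned in K9, and 447 met neither definition. The same shares were 22.7% and 25.9% in M22, 16.1% and 12.7% in DBY8268, 28.1% and 11.0% in YPS163, and 31.5% and 7.6% in RM11-1a. These shares were not tested between strains. They also move with the limits: with arrays of a time scaled to one spread 270 K9 genes returned, and without K9 array 1 or array 2 the number was 230 or 277. Without K9 array 1, 60 genes stayed changed. The overshoots numbered 53 without K9 array 1 and 22 without K9 array 2. Of the 107 genes that stayed changed in K9, 61 were in that class in M22 too, which is 57% of the K9 class and 21.3% of the M22 class; that class held 6.56% of all genes tested in M22. Of the 43 late genes 4 were late in YPS163 too (9.3%), 2 in DBY8268 and in M22 (4.65% each) and 1 in RM11-1a (2.33%). Over all genes tested the late class held 1.19% in YPS163, 0.573% in DBY8268, 1.33% in M22 and 0.826% in RM11-1a.

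**Figure D2:**
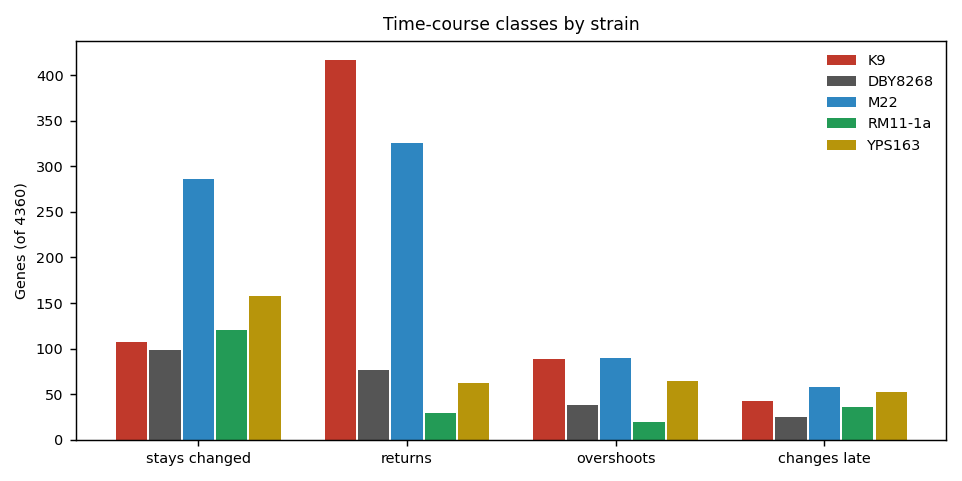
Number of genes (y axis, of 4360 tested) in each time-course class (x axis) for the 5 strains, with K9 first in each set of bars. K9 has 107 genes that stayed changed, 417 that returned, 89 that overshot and 43 that changed late; M22 has 286, 326, 90 and 58.

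The highest genes among those that stayed up in K9 were HSP12, YDL038C, HXK1, TFS1, MET17 and YJL156W-A. HSP12, a small membrane-protecting heat shock protein, had 7.08 and 6.07 on the K9 arrays at 30 min and 5.59 and 2.91 at 120 min. On the other strains' arrays it ranged at 120 min from −2.39 to 6.70 around a median of 3.89 (n = 7), so the K9 values lay inside their range. HXK1, a hexokinase, had 4.53 and 5.16 at 30 min and 2.55 and 2.40 at 120 min in K9. YDL038C moved the other way in time, with 1.29 and 1.31 at 30 min and 3.07 and 2.17 at 120 min. YJL156W-A dipped between, with 0.57 and 0.77 at 60 min and 1.75 and 2.64 at 120 min, and its call at 120 min was lost without K9 array 2 (adjusted p = 0.0525).

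The lowest genes among those that stayed down were PET18, FIT3, GPX2, ATR1, FRE1 and THI7. GPX2, a glutathione peroxidase of membrane lipids, had −2.31 and −1.91 at 30 min and −2.29 and −2.60 at 120 min in K9, against fitted means of the other strains of −1.47 at 30 min and −1.12 at 120 min. ATR1, a drug and boron efflux pump, had −2.93 and −3.14 at 30 min and −2.10 and −1.77 at 120 min. THI7, the plasma membrane thiamine transporter, had −2.11 and −1.51 at 30 min and −1.71 and −1.51 at 120 min. At 25C THI7 was high in K9, with 3.39 and 2.80 over DBY8268.

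Among the genes that returned, GLC3, the glycogen branching enzyme, had 3.52 and 2.53 at 30 min and 0.19 and −0.21 at 120 min in K9. GUT2, the mitochondrial glycerol-3-phosphate dehydrogenase, and HSP31, a stress-induced chaperone and methylglyoxalase, followed the same course from 2.22 and 2.59 and from 2.89 and 2.90 at 30 min. From below, HPT1, which salvages hypoxanthine and guanine, had −3.49 and −3.10 at 30 min and −0.25 and −0.04 at 120 min. TOS6, a cell wall protein, was back near 0 by 45 min, with 0.21 and −0.32 after −2.52 and −3.90 at 30 min. MAE1, the mitochondrial malic enzyme, had −3.36 and −3.06 at 30 min and −0.03 and −0.30 at 120 min.

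Upward overshoots peaked at 45 min in 12 genes, at 60 min in 29 and at 120 min in 19. Among them were KDX1, a kinase-like protein of the cell wall pathway, GFD2, FUI1, the uridine permease, and TRF5, a poly(A) polymerase of nuclear RNA surveillance. FUI1 had −0.95 and −1.16 at 15 min and 1.58 and 0.95 at 45 min in K9, while the mean of the other strains was −0.005 at 45 min, and its own call there was lost with the array code prefix as a covariate (adjusted p = 0.102). KDX1 had −1.52 on its 1 measured array at 5 min and 2.09 and 2.35 at 60 min. TRF5 rested on array 2 for its call at 60 min: the values were 0.64 and 1.45, and the fitted value without that array was 0.68 (adjusted p = 0.305). Downward overshoots peaked at 45 min in 11 genes and at 60 min in 18, and none peaked at 120 min. Of the 89 overshooting genes, 13 are among the 44 members of the respiratory list described below. Over all genes tested the share that overshot was 2.04%.

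The late genes named here are the most extreme of the class, and whether they mark out a group of genes was not tested. Late genes made up 1 of 26 cell wall genes, 1 of 12 endoplasmic reticulum genes and 1 of 20 iron and copper genes. Of the 44 TCA cycle and respiratory genes 2 were late, and of 63 mitochondrial ribosomal protein genes 2. The late class also held 1 of 23 antioxidant genes, 1 of 58 amino acid synthesis genes and 1 of 20 methionine and sulfur genes. Over all genes tested the share was 0.986%. CRH1, a cell wall transglycosylase, had 0.28 and 0.13 at 30 min and 1.25 and 1.20 at 60 min, and it was still at 1.13 and 0.96 at 120 min. EUG1, a protein disulfide isomerase, was up at 45 and 60 min and is described with its family below. The late calls of SDD4 (0.34 and 2.55 at 45 min) and BUD17 (0.29 and 1.89) rested on 1 of the 2 arrays. On the low side, ATP1, a subunit of the mitochondrial ATP synthase, had −0.23 and −0.47 at 30 min and −1.14 and −1.32 at 60 min. ATP6 and ATP8, subunits of the same enzyme that are encoded in mitochondrial DNA, had −1.14 and −1.83 and −0.84 and −1.65 at 60 min. At 120 min the ATP8 call was lost without K9 array 1 or array 2 (adjusted p = 0.169 and 0.263), with the array code prefix (0.0619) and with the series as a replicate block (0.0518). The ATP6 call at 60 min was lost without K9 array 2 (fitted value −1.22, adjusted p = 0.171).

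**Figure D3:**
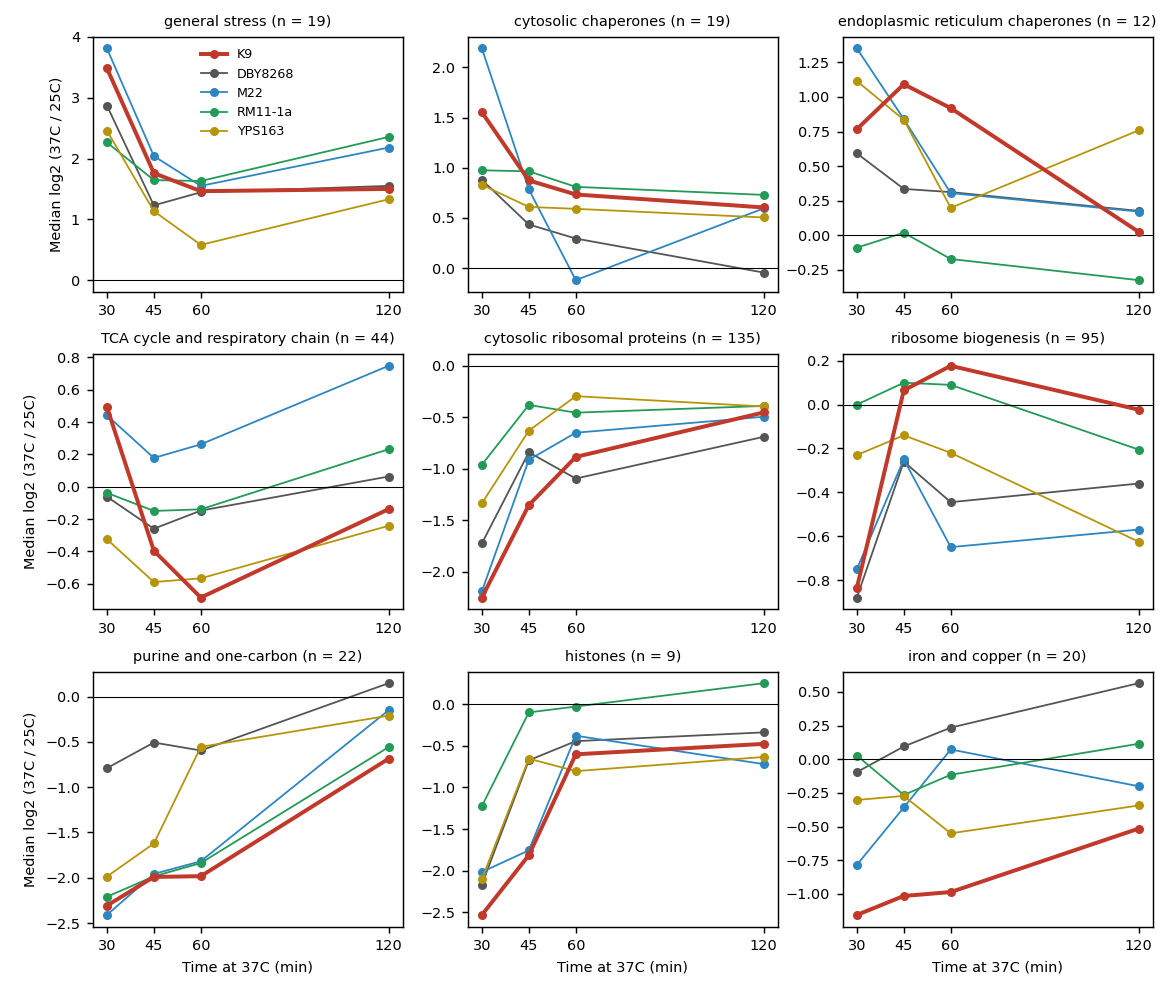
Median fitted log2 ratio of 37C over 25C (y axis) of 9 gene lists in 5 strains, with K9 drawn thicker, at 30, 45, 60 and 120 min at 37C (x axis); n is the number of genes tested in a list. In K9 the respiratory list crosses from 0.49 at 30 min to −0.69 at 60 min, and the endoplasmic reticulum list is highest at 45 min, at 1.09.

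Of the 4 times, cytosolic chaperones were highest at 30 min, after a median of 2.77 at 15 min, and 7 of 19 fell from 30 to 120 min. Of 19 tested, 14, 12, 11 and 8 were called higher in K9 at 30, 45, 60 and 120 min, none was called lower, and the medians were 1.55, 0.87, 0.73 and 0.60. The medians of all genes at these times were 0.07, 0.09, 0.05 and 0.06. Of all genes tested, 25.4%, 14.7%, 11.9% and 8.81% were called higher in K9 at these times. The shares called lower were 21.7%, 12.2%, 11.4% and 3.92%. Counts of list members higher or lower than at 25C, here and below, are to be read beside these shares. SSA4, an Hsp70 made only on stress, had 6.36 and 5.54 at 30 min, 3.8 and 1.77 at 45 min and 1.37 and 1.40 at 120 min in K9, inside the other strains' range of 0.66 to 2.06 around a median of 0.86 at 120 min (n = 8). HSP104, the disaggregase, had 3.94 and 3.87 at 30 min and 1.5 and 1.37 at 120 min in K9. The other strains' arrays at 120 min ranged from 1.46 to 2.85 with a median of 2.22 (n = 8). K9 was lower by 0.82 ± 0.22 (SE; adjusted p = 0.0469), a call lost under most alternatives, with an adjusted p of 0.419 when arrays were scaled to one spread. BTN2, which sequesters misfolded proteins, had fallen before 30 min, from 6.97 and 6.91 at 5 min and 5.81 and 5.92 at 15 min. It had 1.96 and 1.89 at 30 min, 1.61 and 3.14 at 60 min and 1.38 and 2.44 at 120 min. At 60 min it was 1.79 ± 0.35 above the other strains (adjusted p = 0.00204), whose arrays ranged from −0.57 to 1.43 around 0.55 (n = 8). The difference fell to 1.02 without K9 array 2 (adjusted p = 0.313). HSP42 was called at every time, HSP82 likewise, and SSA1 at 30 min only, with fitted values of 1.72, 0.90 and 0.60 at 120 min. At that time the HSP42 call was lost without K9 array 1 or array 2 (adjusted p = 0.0502 and 0.0909), and that of HSP82 without K9 array 2 (0.263) and with the series as a replicate block (0.0553). The count of 8 at 120 min was 5 without K9 array 1 and 4 without K9 array 2. HSP26 and TSL1 lacked values in some group and were not tested. HSP26, a small heat shock protein, had 7.88 and 6.60 at 30 min and 5.10 and 5.58 at 120 min in K9, against 2.46 to 4.61 around 3.11 at 120 min in the other strains (n = 6). UBI4, polyubiquitin, disagreed between the K9 arrays, with −0.55 and 1.94 at 60 min.

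General stress genes, most of them known targets of Msn2 and Msn4, were the highest list at all 4 times. Of 19 tested, 18, 17, 12 and 15 were called higher in K9 and none lower, with medians of 3.48, 1.76, 1.46 and 1.5. The count at 120 min was 9 with the array code prefix as a covariate, 5 without K9 array 1 and 8 without K9 array 2. ALD3, a cytosolic aldehyde dehydrogenase, had 6.12 and 5.62 in K9 at 30 min, against 2.05 to 3.35 around 2.84 in the other strains (n = 5). At 45 min it had 4.73 and 3.96 in K9, against 0.21 to 1.24 around 0.93 (n = 7). The groups did not overlap at either time, but the naming rule chose ALD3 among genes with both K9 arrays outside the other strains' range. The lack of overlap is therefore no separate result, and its share over all genes was not counted. The ALD3 differences were 3.57 ± 0.39 (adjusted p = 1.98e-06) and 3.90 ± 0.37 (adjusted p = 1.33e-07). By 120 min K9 had 1.35 and 1.23, against −0.30 to 1.18 around 0.68 in the other strains (n = 6). CTT1, the cytosolic catalase, had 5.97 and 5.13 in K9 at 30 min, against 0.84 to 3.77 around 2.14 (n = 6), a difference of 3.17 ± 0.49 (adjusted p = 0.000159). At 120 min it had 1.77 and 1.06 in K9, against 0.88 to 2.95 around 2.18 (n = 6), so the groups then overlapped. TFS1, an inhibitor of a vacuolar peptidase, was 2.09 ± 0.33 above the other strains at 45 min (adjusted p = 0.000209), with 4.92 and 3.65 in K9 against 1.72 to 3.09 around 2.67 (n = 8).

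Other general stress genes were lower in K9 than in the other strains at the end. ALD4, the mitochondrial aldehyde dehydrogenase, had 1.15 and 0.72 in K9 at 120 min, against 0.40 to 3.45 around 2.91 (n = 8), a difference of −1.45 ± 0.25 (adjusted p = 0.000934). PNC1, a nicotinamidase, had 0.66 and 0.58 in K9, against 1.21 to 2.73 around 2.08 (n = 8), a difference of −1.32 ± 0.25 (adjusted p = 0.00233). PRB1, a vacuolar protease, and YGP1, a secreted cell wall protein, were lower by 1.48 and 1.56. In all, 4 of the 19 differed from the other strains at 120 min, each lower, beside 0.826% of all genes called lower. Without K9 array 2 the calls of PNC1, PRB1 and YGP1 were lost, with adjusted p-values of 0.103, 0.139 and 0.294, and PRB1 and YGP1 were lost without K9 array 1 too, at 0.293 and 0.374. GAD1, glutamate decarboxylase, had 3.57 and 2.52 in K9 at 45 min and was 2.17 above the other strains, which fell to 1.73 (adjusted p = 0.27) with the array code prefix as a covariate.

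Trehalose and glycogen genes were high at 30 min and near their 25C level at 60 min. Of 9 tested, 7, 5, 3 and 4 were higher at the 4 times, with medians of 2.85, 0.73, 0.06 and 0.72; PGM1 was lower at 30 and 45 min. TPS1, which makes trehalose phosphate, had 3.78 and 3.44 at 30 min, 0.00 and −0.09 at 60 min and 0.76 and 0.69 at 120 min in K9. In the other strains it ranged from 1.56 to 3.63 around 2.25 at 30 min (n = 7) and from 0.82 to 2.00 around 1.5 at 120 min (n = 8). TPS2, the trehalose phosphatase, had 3.02 and 2.76 in K9 at 30 min, against 0.72 to 1.83 around 1.21 (n = 7), a difference of 1.66 ± 0.23 (adjusted p = 9.44e-06). At 30 min 4 of the 9 were called above the other strains, beside 3.03% of all genes, and none was called apart from them at the later times.

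Chaperones and folding enzymes of the endoplasmic reticulum peaked later than the cytosolic ones in K9. Of 12 tested, 8, 10, 9 and 1 were higher at the 4 times, with medians of 0.77, 1.09, 0.92 and 0.03; none was lower. KAR2, the Hsp70 of the endoplasmic reticulum, had 1.72 and 1.13 at 30 min, 2.21 and 2.27 at 45 min, 2.15 and 1.80 at 60 min and 0.42 and 0.30 at 120 min in K9. In the other strains its arrays ranged from 0.23 to 1.40 around 0.92 at 45 min and from −0.11 to 0.78 around 0.50 at 60 min (n = 8 each). The K9 arrays lay above all others at both times, but the share of all genes without overlap was not counted. The differences from the mean of the other strains were 1.42 ± 0.20 (adjusted p = 4.07e-05) and 1.59 ± 0.20 (adjusted p = 3.14e-06). ERO1, the oxidase that drives disulfide formation, had 1.77 and 2.17 in K9 at 60 min, against 0.13 to 0.66 around 0.46 (n = 8), a difference of 1.48 ± 0.21 (adjusted p = 4.24e-05). SIL1, a nucleotide exchange factor for KAR2, had 1.39 and 1.54 at 60 min, against −0.76 to 0.56 around 0.32 (n = 8), a difference of 1.25 ± 0.22 (adjusted p = 0.000802). FPR2, a prolyl isomerase, had 1.49 and 0.97 in K9 at 60 min, against −0.78 to 0.32 around −0.06 (n = 8), a difference of 1.40 ± 0.17 (adjusted p = 2.68e-06). EUG1 had 0.18 and 0.04 at 30 min, 1.17 and 1.68 at 45 min, 1.26 and 0.84 at 60 min and −0.14 and −0.12 at 120 min. At 60 min 6 of the 12 were called above the other strains and at 45 min 5, beside 1.42% and 1.61% of all genes. At 120 min none was called apart from the other strains. At 30 min the list median was higher in M22 (1.35) and YPS163 (1.115) than in K9 (0.77). At 45 min it was 0.84 in M22 and 0.835 in YPS163, against 1.09 in K9. At 60 min the other strains lay between −0.17 and 0.31, against 0.92 in K9. At 120 min YPS163 had 0.76, against 0.03 in K9. The 6 at 60 min were 4 without K9 array 1 and 5 without K9 array 2. The 10 called at 45 min were 6 without K9 array 1 and 6 with the array code prefix as a covariate, and the 9 at 60 min were 6 without K9 array 2. HAC1, whose factor drives these genes, had no call at any of the 4 times, and its 2 K9 arrays disagreed at 60 min, with −3.57 and −0.14.

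**Figure D4:**
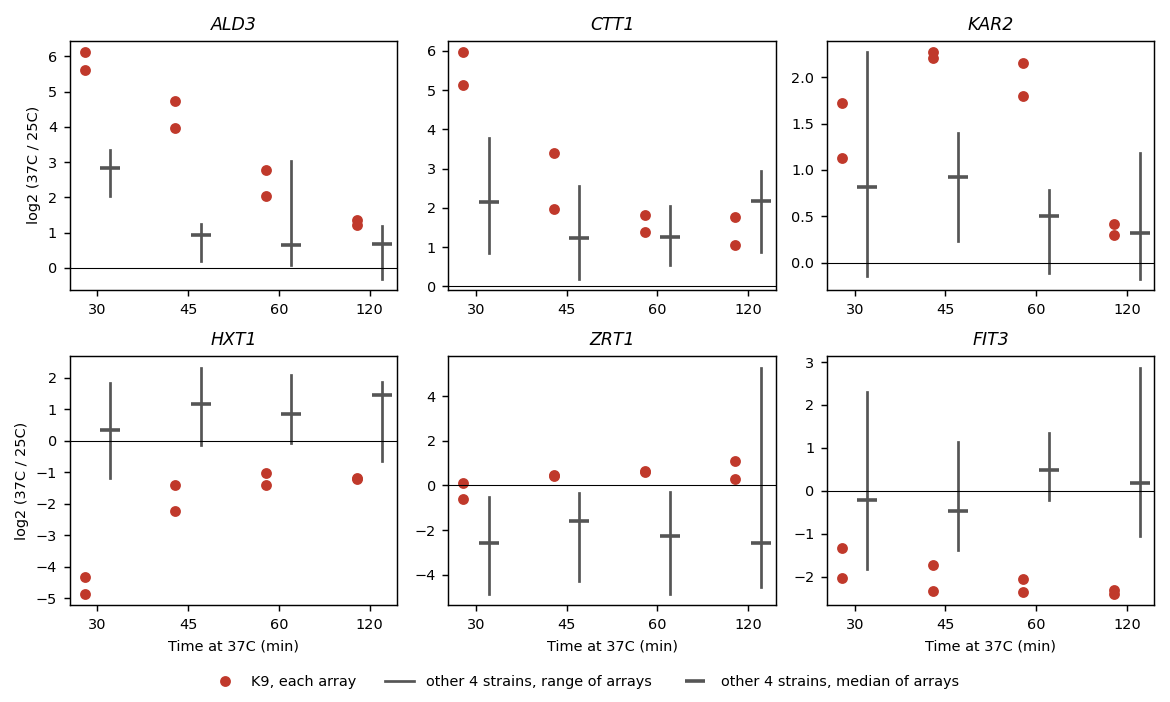
Deposited log2 ratios of 37C over 25C (y axis) of 6 genes at 30, 45, 60 and 120 min at 37C (x axis, even spacing); points on the left of each time are the 2 K9 arrays, and the bar and tick on the right are the range and median of the other 4 strains' arrays. The K9 points of KAR2 lie above the bar at 45 and 60 min, and those of HXT1 lie below it at every time. The share of all genes with both K9 points outside the bar was not counted.

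Genes of the TCA cycle and respiratory chain reversed in K9. Of 44 tested, 25 were higher than at 25C at 30 min and none lower; at 45 min 1 was higher and 16 lower; at 60 min none was higher and 28 lower; at 120 min 1 was higher and 3 lower. The medians were 0.49, −0.40, −0.69 and −0.14. SDH2, the iron-sulfur subunit of succinate dehydrogenase, had 1.73 and 0.82 at 30 min, −1.01 and −1.36 at 60 min and −0.08 and −0.42 at 120 min in K9. In the other strains it ranged from −0.41 to 0.31 around 0.07 at 30 min and from −1.09 to 0.06 around −0.30 at 60 min (n = 8 each). CIT1, citrate synthase, had 1.96 and 2.21 at 30 min and −0.25 and −1.06 at 60 min, against 0.12 to 2.00 around 1.05 and −1.01 to 0.80 around 0.57 (n = 8 each). ACO1, aconitase, had 1.02 and 1.20 at 30 min and −1.39 and −1.25 at 60 min. CYC1, cytochrome c, had 0.61 and −0.20 at 30 min and −0.72 and −1.67 at 45 min.

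At 30 min 12 of the 44 were called above the other strains and none below, beside 3.03% of all genes called higher. At 60 min 5 were called below (CIT1, QCR7, QCR2, IDH1 and ATP5) and none above, beside 1.22% of all genes called lower. Of the 44 differences 43 were negative, as were 48.0% of those of all genes. Single strains lay close to K9 at 1 of these times. At 30 min the list median was 0.49 in K9, 0.44 in M22, −0.06 in DBY8268, −0.04 in RM11-1a and −0.325 in YPS163. At 60 min it was −0.69 in K9, −0.57 in YPS163, −0.15 in DBY8268, −0.14 in RM11-1a and 0.26 in M22. COX13, a subunit of cytochrome c oxidase, had 0.89 and 0.98 in K9 at 30 min, against −1.12 to 0.94 around −0.15 (n = 8), a difference of 1.07 ± 0.16 (adjusted p = 4.16e-05). These counts depend on both K9 arrays. The 25 at 30 min were 13 without K9 array 1 and 14 without array 2, and the 28 at 60 min were 14 and 11. The 16 at 45 min were 10 and 4, and 2 with the array code prefix as a covariate. The 12 at 30 min were 2 without array 1 and 7 without array 2. At 25C this list was already higher in K9 than in DBY8268, with medians of 0.92 and 0.75 on the 2 arrays, where the medians of all genes were 0.06 and −0.04. The part of that 25C level in the ratios was not tested.

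**Figure D5:**
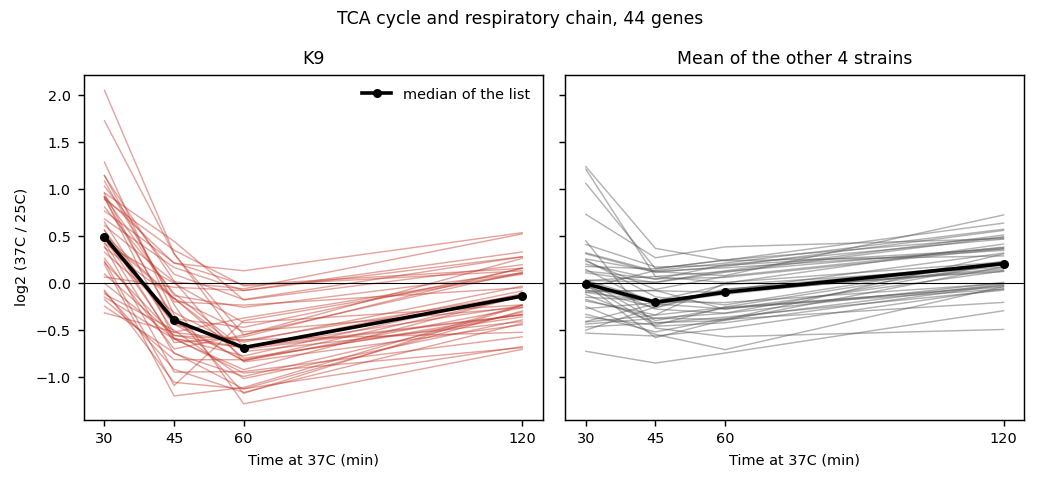
Fitted log2 ratio of 37C over 25C (y axis) of the 44 genes of the TCA cycle and respiratory chain at 30, 45, 60 and 120 min at 37C (x axis), in K9 on the left and as the mean of the other 4 strains on the right; thin lines are genes and the black line is their median. In K9 25 genes are called higher at 30 min and 28 lower at 60 min.

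Genes for making ribosomes came back at different speeds. Of 135 genes for cytosolic ribosomal proteins, 134, 132, 108 and 11 were lower than at 25C in K9, none was higher, and the medians were −2.25, −1.35, −0.89 and −0.45. At 30 min the M22 median, −2.19, was close to that of K9. At 120 min the other strains had medians between −0.69 and −0.39. Of 95 ribosome biogenesis genes, 52 were lower at 30 min, but at 45 min 5 were higher and 4 lower, with medians of −0.84 and 0.07. The numbers move with the setting: without a dye term 42 ribosomal protein genes were lower at 60 min and 3 at 120 min, and without K9 array 1 the numbers were 20 and 1. Leaving out K9 array 2 instead gave 51 at 60 min. With arrays centred, 25 were lower at 120 min, and with the prefix covariate 2. Of the biogenesis genes 12 were lower at 30 min without K9 array 1. At 30 min 24 ribosomal protein genes were called below the other strains and at 45 min 13, beside 3.69% and 1.56% of all genes; without a dye term these counts were 1 and 0, and without K9 array 1 both were 0. They were 56 and 6 without K9 array 2.

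All 9 histone genes tested were lower in K9 at 30 min, and 8, 4 and 2 at the later times, with medians of −2.53, −1.81, −0.60 and −0.48. HTA1, histone H2A, had −3.08 and −3.18 at 30 min, −2.30 and −2.25 at 45 min and −0.78 and −0.72 at 60 min in K9. At 45 min the other strains ranged from −2.47 to −0.07 around −0.66 (n = 8), and K9 was lower by 1.40 ± 0.27 (adjusted p = 0.00165, or 0.05 without K9 array 2). In all 6 of the 9 were below the other strains at 45 min, beside 1.56% of all genes, a count that was 3 without K9 array 1 and 3 with the array code prefix as a covariate. The M22 median at 45 min, −1.75, was close to that of K9. Of the 33 proteasome genes 31 were higher at 30 min, 4 at 45 min and none at 60 min, with medians of 0.88, 0.22 and −0.01.

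Genes of purine and one-carbon synthesis had the lowest median of the lists in K9 at 45, 60 and 120 min. Of 22 tested, 20, 17, 14 and 4 were lower in K9, with medians of −2.31, −1.99, −1.98 and −0.69; ADE16 was higher at 30 and 45 min. ADE1 had −3.58 and −4.66 at 30 min, −2.89 and −3.15 at 60 min and −0.62 and −0.73 at 120 min in K9, against −3.11 to −0.24 around −2.23 at 60 min in the other strains (n = 8). ADE1, MTD1 and ADE12 were called below the other strains at 60 min (1.22% of all genes were), by 1.29, 1.34 and 1.28, and all of these calls were lost without K9 array 2 (adjusted p = 0.329, 0.343 and 0.126), those of ADE1 and ADE12 also without array 1 (0.142 and 0.144). M22 and RM11-1a had medians of −1.82 and −1.84 at 60 min, YPS163 −0.56 and DBY8268 −0.59. At 25C the list was high in K9, with medians of 0.97 and 1.20 over DBY8268.

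Several sulfur assimilation and methionine genes were higher at all 4 times. Of 20 tested, 11, 5, 8 and 6 were higher at the 4 times, while SAM1, which makes S-adenosylmethionine, was lower at each and MET6 at 45 min. MET17, which forms homocysteine, had 3.48 and 2.90 at 30 min and 2.64 and 2.11 at 120 min in K9. Its difference of 2.01 ± 0.41 from the other strains at 30 min (adjusted p = 0.0018; other arrays 0.20 to 3.14 around 1.01, n = 8) was lost without K9 array 1 (1.72, adjusted p = 0.0995). MUP3, a methionine permease, had 1.11 and 0.95 in K9 at 30 min, against −2.44 to 1.45 around −0.97 (n = 8), a difference of 1.97 ± 0.34 (adjusted p = 0.000294). At 30 min 7 were called above the mean of the other strains, beside 3.03% of all genes. M22 was close to K9 then, with list medians of 1.035 and 1.055, while the remaining strains lay between 0.05 and 0.11. The M22 median was above that of K9 at 60 min (1.1 against 0.507) and at 120 min (0.87 against 0.56). The 11 higher at 30 min were 4 without K9 array 1, with 11 members then tested, and the 7 were 1 without array 1 and 4 without array 2. With both K9 arrays needed at all times, which leaves 9 members, the counts were 4 and 2.

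Of 20 genes of glycolysis and fermentation, 12, 12, 15 and 6 were lower in K9, 1 was higher at 30 min (PYK2, a pyruvate kinase) and 2 at 45 min (PYK2 and ADH4, an alcohol dehydrogenase), with medians of −0.75, −0.70, −0.86 and −0.36. Of 9 hexose transport genes 2 were higher and 2 lower at 30 min, near the shares of all genes (25.4% and 21.7%). HXT1, the low-affinity glucose transporter, had −4.87 and −4.34 in K9 at 30 min, against −1.19 to 1.82 around 0.35 in the other strains (n = 8). At 120 min it had −1.18 and −1.21 in K9, against −0.66 to 1.85 around 1.44 (n = 8). The groups did not overlap at any of the 4 times, which the naming rule required of HXT1 at 30 and 45 min. The share of all genes without overlap was not counted, so the lack of overlap is no separate result. The differences were −4.80 ± 0.38 (adjusted p = 6.07e-11), −2.65, −2.07 and −2.24 ± 0.38 (adjusted p = 0.000699). At 25C HXT1 was high in K9, with 2.33 and 2.56 over DBY8268. ALD6, the aldehyde dehydrogenase that makes acetate, had −2.72 and −3.10 at 30 min, −1.29 and −1.82 at 60 min and −0.58 and −0.73 at 120 min in K9. In the other strains it ranged from −1.45 to 0.58 around −0.31 at 30 min and from −1.09 to 0.77 around 0.25 at 120 min (n = 8 each), and the difference shrank to −0.72 at 120 min, against −2.63 at 30 min. CYB2, lactate dehydrogenase of mitochondria, had 3.81 and 3.21 in K9 at 30 min, against −0.77 to 2.16 around 0.71 (n = 6), a difference of 2.93 ± 0.41 (adjusted p = 4.16e-05). By 60 min it had 0.53 and −0.30 in K9, inside the range of the other strains.

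Ergosterol genes were lowered up to 60 min: of 25 tested, 14, 14, 13 and 3 were lower in K9 and 2 were higher at 30 min, with medians of −0.53, −0.62, −0.49 and −0.02. At 30 and at 45 min 6 were below the other strains, beside 3.69% and 1.56% of all genes. The M22 median at 45 min, −0.575, was close to that of K9. Cell wall genes split, with 10 higher and 8 lower of 26 at 30 min and 9 higher and none lower at 120 min. Of all genes, 25.4% were higher and 21.7% lower at 30 min, and 8.81% and 3.92% at 120 min. YPS3, a yapsin protease, and GSC2, a glucan synthase, were among the 7 called higher at 60 min, at 1.40 and 1.63.

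Genes that handle iron, copper, zinc, thiamine and phosphate were among those that still set K9 apart at 120 min. Of 20 iron and copper genes, 9, 8, 9 and 6 were lower in K9 and none was higher, with medians of −1.16, −1.01, −0.99 and −0.52. At 60 min 5 were below the other strains (FIT2, FIT3, FRE1, CTR1 and CTR3) and at 120 min 3, beside 1.22% and 0.826% of all genes. The 5 at 60 min were 3 without K9 array 1 and 3 without K9 array 2, with 12 and 17 members then tested. The 6 lower than 25C at 120 min were 3 without K9 array 1 and 3 with the array code prefix as a covariate. FIT3, a cell wall protein that holds iron carriers, had −2.41 and −2.32 in K9 at 120 min, against −1.05 to 2.87 around 0.19 (n = 8), a difference of −3.13 ± 0.50 (adjusted p = 0.00034). Without K9 array 2 that difference was −3.18 (adjusted p = 0.061). CTR1, the copper transporter, had −1.29 and −0.92 in K9 at 120 min, against −0.54 to 1.04 around 0.34 (n = 8), a difference of −1.49 ± 0.27 (adjusted p = 0.00107). FIT2 had −2.53 and −1.95 in K9 at 60 min, and its difference of −2.95 was −2.66 (adjusted p = 0.306) without K9 array 1. FRE1, a metal reductase, had −1.97 and −1.03 at 120 min and was lower by 0.95 (adjusted p = 0.0367), by 0.48 (adjusted p = 0.389) without K9 array 1. Some members differed between the series: FET3, an iron oxidase, had −3.82 and −1.01 at 30 min and ARN1, an iron carrier transporter, −2.47 and −0.21. At 25C FIT3 had 2.28 and 1.42 and FIT2 3.61 and 1.14 in K9 over DBY8268.

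PET18 stayed low in K9 at all 4 times, with −2.63 and −2.14 at 30 min and −2.79 and −3.15 at 120 min, against 0.06 to 0.53 around 0.21 in the other strains at 120 min (n = 6). The groups did not overlap at 120 min, as the naming rule required, and the fitted difference then was −2.79 ± 0.30 (adjusted p = 2.38e-05). At 25C it was 4.13 and 4.01 in K9 over DBY8268. THI20, an enzyme of thiamine synthesis, had −0.85 and −0.96 at 30 min and −1.50 and −1.97 at 120 min in K9, against 0.48 to 1.39 around 0.80 at 120 min (n = 7), a difference of −2.43 ± 0.30 (adjusted p = 8.11e-06). At 25C it too was high, with 1.57 and 2.04.

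ZRT1, the high-affinity zinc transporter, had −0.61 and 0.12 at 30 min, 0.66 and 0.61 at 60 min and 0.27 and 1.10 at 120 min in K9. It was called higher than at 25C at 60 min (fitted value 0.71, adjusted p = 0.0278) and at 120 min (0.76, adjusted p = 0.029), a call lost at 120 min with arrays centred (0.0547), without a dye term (0.0662) and with the array code prefix (0.159). The other strains ranged from −4.86 to −0.28 around −2.26 at 60 min (n = 8), without overlap, as the naming rule required. The difference then was 3.12 ± 0.26 (adjusted p = 2.3e-09). At 120 min the other strains ranged from −4.57 to 5.28. Of 11 phosphate genes, 4, 3, 3 and 5 were above the other strains, beside 3.03%, 1.61%, 1.42% and 0.619% of all genes. All 11 differences were positive from 45 min on, as were 48.7%, 52.0% and 50.3% of those of all genes at 45, 60 and 120 min. The list median of YPS163 was close to that of K9 at 60 min, 0.125 against 0.15. At 120 min these medians were −0.4 and 0.28. At 60 min M22, RM11-1a and DBY8268 had −0.915, −0.42 and −0.355. PHO84, the high-affinity phosphate transporter, had −1.11 and −1.49 at 30 min and 0.73 and 0.57 at 120 min in K9, against −1.51 to −0.63 around −0.95 at 120 min (n = 8), a difference of 1.78 ± 0.25 (adjusted p = 2.43e-05). VTC3, of the vacuolar polyphosphate polymerase, had 0.42 and 0.54 at 120 min, against −1.36 to −0.25 around −0.70 (n = 8), a difference of 1.37 ± 0.17 (adjusted p = 8e-06). The 5 at 120 min were 2 without K9 array 1 and 1 without K9 array 2. At 25C the level in K9 was low, with ZRT1 at −2.48 and −2.04, PHO84 at −3.58 and −2.64, and medians of the phosphate list at −1.89 and −1.70 over DBY8268. For these genes, as for PET18, THI20, FIT3 and HXT1, the sign at 25C was opposite to that of the difference after heat, and the part of the 25C level in the difference was not tested.

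Across all genes, 132 were higher and 161 lower in K9 than in the other 4 strains on average at 30 min (3.03% and 3.69% of those tested). At 45 min the counts were 70 and 68 (1.61% and 1.56%), at 60 min 62 and 53 (1.42% and 1.22%), and at 120 min 27 and 36 (0.619% and 0.826%). The totals of 293, 138, 115 and 63 rest on single series, and a left-out array again stands for its strain's whole series. Without K9 array 1 they were 72, 73, 33 and 37, and without K9 array 2 they were 60, 30 and 5 at 45, 60 and 120 min. Leaving out 1 array of DBY8268 or M22 gave between 169 and 185 at 30 min, between 52 and 90 at 45 min, between 43 and 65 at 60 min, and 22 or 28 at 120 min, where the count moved by more than 1.5-fold; without YPS163 array 1 it was 121 at 120 min. The split at 45 min was 50.7% higher, 40.3% with arrays centred, and that at 120 min was 42.9% higher, 59.5% with arrays of a time scaled to one spread, which called 116 genes.

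In the change from 30 to 120 min within K9 the shared 25C RNA cancels where both arrays have a value at both times; 768 of the genes tested lack at least 1 of the 8 K9 values. It was upward in 584 genes and downward in 426 (13.4% and 9.77%), and upward here includes lowered genes that came back. Set against the same change in the other 4 strains, 57 genes changed more positively and 76 more negatively in K9 (1.31% and 1.74%). The 2 K9 series pair across times, and with the series as a random replicate block 269 changed more positively and 200 more negatively, and with a fixed block 306 and 215. With arrays scaled to one spread the numbers were 48 and 38. Series 2 of M22 and of RM11-1a carried another 25C label at 30 min than at 120 min, and without the 4 arrays with another label or a technical repeat the total of 133 was 81. It was 20 without K9 array 1, 43 without K9 array 2, 37 and 70 without M22 array 1 and array 2, and 85 and 66 without DBY8268 array 1 and array 2.

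On the downward side, the change of CTT1 was −3.51 ± 0.69 relative to the other strains (adjusted p = 0.00333), that of CYB2 −3.34 ± 0.57 (adjusted p = 0.0011), and that of HXT4, a hexose transporter, −3.29 ± 0.65 (adjusted p = 0.00285). HXT4 was near its 25C level in K9 at 30 min, with 0.31 and 0.27, against −5.03 to −0.98 around −1.74 in the other strains (n = 8). The call of CTT1 was lost without K9 array 2 (adjusted p = 0.0637) and with arrays scaled to one spread (adjusted p = 0.104), and that of HXT4 without K9 array 2 (adjusted p = 0.0975). TPS2, with −2.24 ± 0.32 (adjusted p = 3.9e-05), kept its call under the alternatives run. Of the respiratory genes 13 of 44 changed more negatively in K9 and none more positively, beside 1.74% of all genes, 25 with the random replicate block, but none without K9 array 1 and 2 without K9 array 2. Of the 19 general stress genes 4 did so, 11 with the block and none without either K9 array. Upward, YDR222W changed by 2.73, HXT1 by 2.57 ± 0.52 (adjusted p = 0.00333) and OLE1, the fatty acid desaturase, by 2.50 ± 0.53 (adjusted p = 0.00449). OLE1 had −3.85 and −3.61 at 30 min and 0.37 and 0.59 at 120 min in K9, and its call was lost without K9 array 1 or array 2 (adjusted p = 0.171 and 0.111). ALD6, with 1.91 ± 0.25 (adjusted p = 2.14e-05), and PHO84, with 2.01 ± 0.34 (adjusted p = 0.000495), kept their calls under the alternatives run. These were 11 for ALD6 but 9 for PHO84, which was not tested without K9 array 2.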

How the data were processed

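RNA of 5 yeast strains was compared on 2-colour arrays, and the 60 time-course arrays entered 1 model. The deposited table holds the authors' log2 ratios (base and normalization not stated) per reading frame and array, already turned the same way, per the labels' dye assignments and the positive replicate correlations. Values were used as deposited; of 6297 frames 5832 matched a RefSeq R64 locus tag, used for names only, and 465 kept their systematic name. Only genes measured at least once for every strain at every time (30 groups) were tested, 4360 in all; 768 lack at least 1 of the 8 K9 values. Per gene, 30 means and a dye term were fitted by least squares with limma 3.58.1 moderation (R 4.3.3, statmod 1.5.0; prior df 5.68). K9 was tested against 0, against the mean of the other 4 strains, and for its change from 30 to 120 min, with Benjamini-Hochberg adjusted p-values over all genes. The script was tested on simulated data. Precision is limited by how few arrays there are; the median SD of an array was 0.294.

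Pairing came from the shared 25C label of a series: over the 15 pairs of K9 times, deviations correlated at 0.188 to 0.72. Members, lists and the naming rule were chosen with earlier results of these data known. The rule named 13 heat shock genes, the most extreme genes of each class, the 3 highest and 3 lowest differences from the other strains per time with both K9 arrays outside their range, the 3 largest differences in change each way, and up to 3 members per list with the smallest p at 120 min; other list members were chosen after their values were seen. Alternatives were centring, scaling, no dye term, array code, replicate blocks, missing-value filters, size limits, and left-out series and arrays.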

Additional observations from a re-analysis of the deposited data

Results flagged for a closer look

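Each result here was drawn out because K9 and the mean of the other 4 strains differed in a test of that difference itself (limma, adjusted p under 0.05), and all values are K9 minus that mean on the log2 scale. The test called 293, 138, 115 and 63 genes in the order of the 4 times, and 133 genes for the change from 30 to 120 min.

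At 30 min the general stress genes ALD3 and CTT1 differed by 3.57 and 3.17 and the lactate dehydrogenase CYB2 by 2.93. HXT1, PET18 and ALD6 differed by −4.80, −2.66 and −2.63. Among respiratory genes SDH2, SDH1 and COX13 differed by 1.30, 1.11 and 1.07, and among methionine genes MUP3 and MET17 by 1.97 and 2.01. The SDH1 call was lost without K9 array 1 (0.88, adjusted p = 0.357) and without K9 array 2 (adjusted p = 0.0534), and that of SDH2 without K9 array 1 (0.85, adjusted p = 0.29).

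At 45 min ALD3, ZRT1, GAD1 and TFS1 differed by 3.90, 2.79, 2.17 and 2.09. HXT1, ALD6 and FIT3 differed by −2.65, −2.13 and −1.96, and the histone gene HTA1 by −1.40. KAR2 and EUG1 differed by 1.42 and 1.06. The FIT3 call at this time was lost without K9 array 1 or array 2 (adjusted p = 0.11 and 0.322), and that of HTA1 without K9 array 2 (adjusted p = 0.05).

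At 60 min ZRT1, YBR099C and RTS3 differed by 3.12, 2.03 and 1.88, the last with an adjusted p of 0.0623 under the replicate block. FIT2, FIT3 and PET18 differed by −2.95, −2.78 and −2.50, and CTR1 and FRE1 by −1.74 and −1.22. Chaperones of the endoplasmic reticulum differed upward, KAR2 by 1.59, ERO1 by 1.48, FPR2 by 1.40, SIL1 by 1.25, EUG1 by 0.96 and JEM1 by 0.84. In the cytosol BTN2, the Hsp40 gene YDJ1 and the exchange factor FES1 differed by 1.79, 0.85 and 0.68. JEM1, YDJ1 and FES1 lost their calls without K9 array 2 (adjusted p = 0.429, 0.234 and 0.243), as FIT3 did (adjusted p = 0.0822), and EUG1 lost its call without K9 array 1 (adjusted p = 0.062). The respiratory genes QCR7, CIT1, QCR2, IDH1 and ATP5 differed by −1.05, −0.93, −0.85, −0.71 and −0.58, and none of these calls held without K9 array 2 (adjusted p = 0.058, 0.68, 0.126, 0.351 and 0.573). Without K9 array 1 the calls of QCR7, IDH1 and ATP5 were lost too (adjusted p = 0.237, 0.137 and 0.0908), as were those of YDJ1 and FES1 (0.313 and 0.285). The purine and one-carbon genes MTD1, ADE1 and ADE12 differed by −1.34, −1.29 and −1.28.

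At 120 min PHO84, IZH1, a membrane protein of zinc homeostasis, and BTN2 differed by 1.78, 1.52 and 1.51. The phosphate genes VTC3, VTC1, PHO12 and VTC4 differed by 1.37, 1.17, 1.05 and 1.03. FIT3, PET18 and THI20 differed by −3.13, −2.79 and −2.43, CTR1 and FRE1 by −1.49 and −0.95. Of the stress genes YGP1, PRB1, ALD4, PNC1 and HSP104 differed by −1.56, −1.48, −1.45, −1.32 and −0.82. Without K9 array 2 the calls of BTN2, VTC1, PHO12 and VTC4 were lost (adjusted p = 0.505, 0.18, 0.567 and 0.191), that of VTC1 also without array 1 (0.0529).

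In the change from 30 to 120 min YDR222W, HXT1, OLE1, IZH1, PHO84 and ALD6 differed by 2.73, 2.57, 2.50, 2.07, 2.01 and 1.91. CTT1, CYB2 and HXT4 differed by −3.51, −3.34 and −3.29. GLC3, ALD3, TPS2, the mitochondrial outer membrane gene OM45 and TPS1 differed by −2.82, −2.67, −2.24, −2.0 and −1.79, and SDH2, SDH1 and CIT1 by −1.85, −1.73 and −1.71. Without K9 array 1 the calls of GLC3, OM45, TPS1, SDH2, SDH1 and CIT1 were lost (adjusted p = 0.0953, 0.062, 0.196, 0.224, 0.447 and 0.0609), as was that of IZH1 (adjusted p = 0.0982). Those of ALD3, OM45, TPS1, SDH1 and CIT1 were lost without K9 array 2 (adjusted p = 0.0637, 0.0658, 0.0781, 0.0766 and 0.0924).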

How the results depend on the processing

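Over 14 counts and all alternatives, 139 values lay within 1.5-fold of the reported count and 65 did not. Among 204 results on single genes, 1673 values kept direction and call, 225 lost and 7 gained the call, and 3 reversed. All 3 concern STE5 in K9 at 120 min, not called at 0.09: −0.0065 with arrays centred, −0.09 without a dye term and −0.0598 with the array code prefix. The cause was not tested in any case below. Without a dye term, 90 genes differed from the other strains at 45 min. With the prefix as a covariate that count was 34, and K9 calls were 375 at 45 min and 330 at 120 min. With arrays of a time scaled to one spread, differences numbered 130 at 30 min and 116 at 120 min, differences in change 86, and returning genes 270. Needing both K9 arrays at all 6 times, which tests fewer genes, gave 367 calls and 40 differences at 120 min, 67 genes that stayed changed, 55 overshoots and 24 late genes. Needing values in K9 groups only gave 66 late genes. Without M22, 83 genes differed at 45 min and 28 at 120 min. A fit of K9 arrays alone called 663 genes at 60 min and 294 at 120 min. Smaller size limits gave 195 genes that stayed changed and 89 late genes. The series as a replicate block moved 1 of the 14 counts by over 1.5-fold: 469 differences in change with a random block and 521 with a fixed one, against 133.

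The ranges below came from leaving out 1 series of a strain, written as its array 1 or array 2. They include leaving out the 4 arrays with another 25C label or a technical repeat. K9 calls ran from 1157 to 1817 at 30 min, 629 to 1047 at 45 min, 368 to 882 at 60 min and 167 to 483 at 120 min, the lowest without K9 array 1 at 30, 45 and 120 min and without array 2 at 60 min. Differences from the other strains ran from 72 (without K9 array 1) to 365 at 30 min, 52 (without M22 array 1) to 175 at 45 min, 30 (without K9 array 2) to 162 at 60 min, and 5 (without K9 array 2) to 121 at 120 min, the last without YPS163 array 1. Without the 4 arrays 194 genes differed at 30 min and 81 in change. The K9 change ran from 384 to 893, and its difference from the other strains from 20 to 194, the lowest without K9 array 1. Genes that stayed changed ran from 60 to 92, returning genes from 230 to 374, overshoots from 22 to 77 and late genes from 29 to 60. With 2 K9 arrays a time and no dye swap, the number of arrays limits what these counts can show.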
